A study of Mus musculus with 63 samples.

Results

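The AMPA receptor genes described here were the pore-forming subunits Gria1, Gria2, Gria3 and Gria4 and 5 auxiliary subunits, namely Cacng2, Cacng3 and Cacng8, members of the transmembrane AMPA receptor regulatory protein (TARP) family, and the cornichon homologues Cnih2 and Cnih3. They were chosen by symbol, and all 9 were among the 20183 protein-coding genes of the expression table. The study compared neurons in layer 2/3 of the mouse primary visual cortex (V1) that did or did not answer a visual stimulus. Cells were loaded with the calcium dye Cal-520 AM, classed in lightly anaesthetised mice as light-sensitive (LS) if nearly every repeat of a drifting grating raised their calcium and as non-light-sensitive (NS) if at most 1 repeat did, then drawn 1 at a time into a pipette and sequenced with Smart-seq2, a full-length cDNA protocol without molecular identifiers. All 63 cells (46 LS and 17 NS) came from wild type C57BL/6 mice with a labelled age of 70 days. The labels name no mouse for any cell, so LS and NS were each treated as 1 sample, no test between them was possible, and no p-value is given. Every SD is therefore a spread between cells. Intervals on shares of cells are exact binomial 95% intervals. They take cells as independent draws, which cells of unnamed mice may not be, so they leave out the spread between mice. Only the cell body was collected, so RNA in dendrites was not sampled.

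AMPA receptors are tetramers of the GluA subunits that the Gria genes encode, and they carry most fast excitatory transmission in the cortex. Receptors that contain the edited GluA2 subunit pass little calcium, whereas receptors without it pass more. Cortical excitatory neurons are known for abundant GluA2, and many inhibitory interneurons for a larger part of GluA4. TARPs and cornichons join the receptor in the membrane, help it to reach the surface and slow its closing.

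The pore loop of the 4 subunits is shown because the codon that sets calcium permeability lies there, and a gene-level value cannot show its state. Each line gives the coding strand from 5′ to 3′ in GRCm38 from GENCODE M21 transcripts, with the glutamine (Q/R) codon in capitals.
Gria1: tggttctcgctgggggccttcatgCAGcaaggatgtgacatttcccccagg
Gria2: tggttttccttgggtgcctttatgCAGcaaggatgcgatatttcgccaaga
Gria3: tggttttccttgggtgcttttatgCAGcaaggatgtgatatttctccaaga
Gria4: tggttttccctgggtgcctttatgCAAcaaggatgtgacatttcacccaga

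The capitals lie at chr11:57243094-57243096 on the plus strand for Gria1 (codon 600, exon 11), chr3:80706911-80706913 on the minus strand for Gria2 (codon 607, exon 11), chrX:41610265-41610267 on the plus strand for Gria3 (codon 612, exon 11) and chr9:4464137-4464139 on the minus strand for Gria4 (codon 608, exon 12). Gria2 and Gria3 shared 48 of the 51 bases, the closest pair, and Gria1 shared 41 with either of them. The genome carries a glutamine codon in all 4 genes. In Gria2 RNA the enzyme ADARB1 edits this codon to arginine, and the FPKM values below count edited and unedited transcripts, and the flip and flop splice forms, together.

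The last coding bases of the 3 TARPs are shown because their shared tail is the part that anchors the receptor complex to the scaffold protein PSD-95, encoded by Dlg4. The capitals mark the last 4 codons before the stop codon.
Cacng2: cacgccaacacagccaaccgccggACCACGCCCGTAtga
Cacng3: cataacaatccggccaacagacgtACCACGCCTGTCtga
Cacng8: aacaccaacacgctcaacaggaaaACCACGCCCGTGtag

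These codons lie at chr15:77995152-77995163 on the minus strand for Cacng2, chr7:122768832-122768843 on the plus strand for Cacng3 and chr7:3415591-3415602 on the plus strand for Cacng8, all in coding exons. Cacng2 and Cacng3 shared 28 of the 39 bases, Cacng2 and Cacng8 26, and Cacng3 and Cacng8 24. Cnih2 spans chr19:5092868-5098521 on the minus strand and Cnih3 chr1:181352628-181460641 on the plus strand.

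The study's stated filters kept 35 LS and 12 NS cells, 47 of the 63. The depth differed between the groups. Reads assigned to listed genes ran from 382129 to 2549680 with a median of 935631 in LS cells, and from 155171 to 901861 with a median of 334582 in NS cells. Reads on olfactory, vomeronasal and taste receptor genes, which cortical neurons do not use, were at 10% or more of an even spread over all exons in 4 of 35 LS and 9 of 12 NS cells. By marker genes, 30 LS cells were glutamate-marked (Slc17a7 plus Neurod2 FPKM above Gad1 plus Gad2), 4 were GABA-marked (the reverse) and 1 was unmarked (all 4 genes at 0). In NS cells these numbers were 2, 6 and 4. The class is a range of marker levels rather than a cell type: 5 of 35 LS and 3 of 12 NS cells had reads of both marker pairs. The summed FPKM of 4 microglial markers ran from 0 through a median of 241 to 2660 in LS cells and from 0 through 554 to 7799 in NS cells. The 7 astrocyte markers summed to a median of 93.0 in LS and 93.9 in NS cells, with tops of 1049 and 1567. The 6 oligodendrocyte markers summed to a median of 11.2 in LS and 56.1 in NS cells, with tops of 140 and 1136. For the 3 markers of oligodendrocyte precursors the medians were 0 and 6.07, with tops of 21.7 and 270. Of the 7 glutamate markers, Neurod6, Tbr1 and Neurod1 were at 0 in every NS cell. The part that depth, receptor-gene reads, marker class or other cells' RNA plays in the differences below was not tested, and class and response cannot be told apart where few NS cells are glutamate-marked.

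At least 1 subunit gene was read in 34 of 35 LS cells and in 6 of 12 NS cells. Of the cells without one, LS_43, NS_2 and NS_4 had none of the 7 glutamate or 11 GABA markers, and NS_15 had Erbb4 alone. NS_6, NS_7 and NS_11 had Gad1 or Gad2. NS_4 held 4908 FPKM of C1qb and NS_15 1136 of the oligodendrocyte gene Mog, so not every filtered cell was marked as a neuron. The median LS cell had reads of all 4 Gria genes and of 7 of the 9 genes, and 25 of 35 had all 4 subunits. The median NS cell had 2.5 of the 9 genes, and 2 of 12 had all 4 subunits. At an equal depth of 200000 reads per cell, reached by all LS cells and 9 NS cells, 18 of 35 LS and 2 of 9 NS cells had all 4 subunits, and 3 of 9 NS cells had none. The 6 NS cells without a subunit read had 155171 to 373235 reads and receptor-gene levels with a median of 97.5%, against 290284 to 901861 reads and a median of 9.53% in the other 6.

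**Figure D1:**
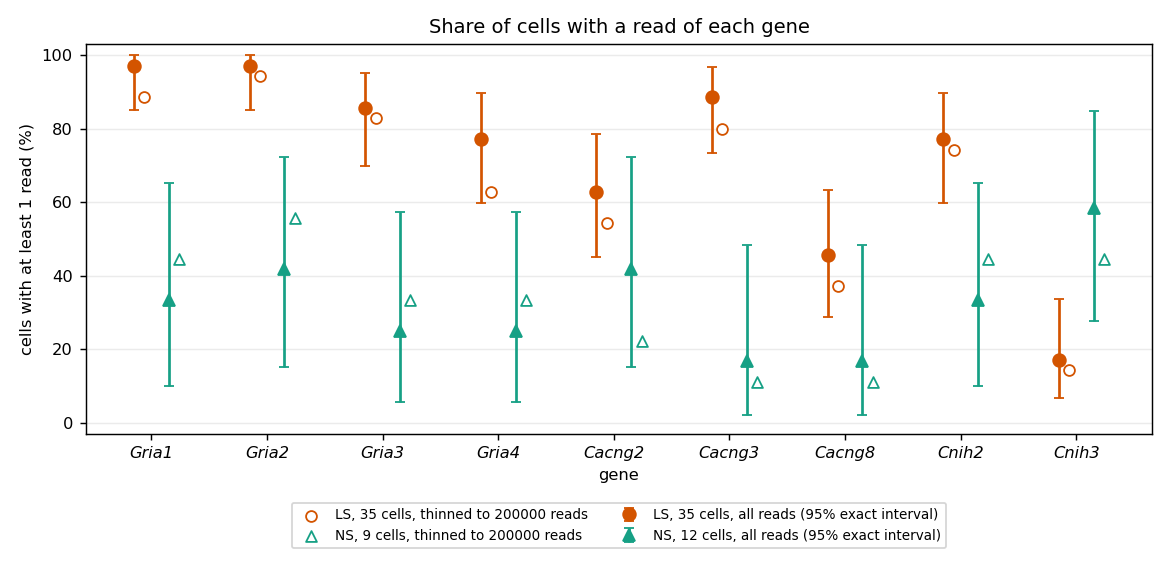
Percent of cells with at least 1 read of each gene (vertical axis), with filled points and exact binomial 95% intervals for 35 LS cells (circles) and 12 NS cells (triangles), and open points after thinning to 200000 reads. The share for Cnih3 was 17.1% in LS and 58.3% in NS cells. LS cells had more genes of any kind above 1 FPKM, with a median of 5890 against 3061.5 in NS cells.

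Gria1, whose protein GluA1 is delivered to synapses during potentiation, was read in 34 of 35 LS cells (97.1%, interval 85.1 to 99.9%) and in 4 of 12 NS cells (33.3%, interval 9.92 to 65.1%). Its LS values ran from 0 through a median of 16.7 to 84.2 FPKM, with a mean of 24.4 ± 22.3 (SD, n = 35 cells). The NS cells with a read were NS_13 at 4.48, NS_8 at 13.6, NS_9 at 22.8 and NS_16 at 626 FPKM, and the other 8 were at 0. Most NS cells thus lay at the bottom of the LS range, but NS_16 stood above every LS cell and held 2769 of the 2877 NS reads. The NS mean of 55.6 ± 180 was 2.28-fold the LS mean, a log2 ratio of LS to NS of -1.19. Without NS_16 the NS mean was 3.72 ± 7.57 FPKM and the log2 ratio 2.72, so that 1 cell set the direction.

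Gria2, the subunit that limits calcium entry, was read in 34 of 35 LS and 5 of 12 NS cells (41.7%, interval 15.2 to 72.3%). Its LS values ran from 0 through a median of 22.6 to 109 FPKM, with a mean of 28.9 ± 23.7. The NS cells with a read were NS_12 at 1.60, NS_9 at 6.43, NS_16 at 16.7, NS_14 at 17.8 and NS_13 at 18.6 FPKM. No NS cell reached the LS median, and 21 of 35 LS cells lay above the highest NS cell. The LS mean was 5.67-fold the NS mean of 5.09 ± 7.82, a log2 ratio of 2.50 and, without NS_13, of 2.90.

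Gria3, an X-linked subunit that often joins GluA2, was read in 30 of 35 LS cells (85.7%, interval 69.7 to 95.2%) and 3 of 12 NS cells (25%, interval 5.49 to 57.2%). Its LS values ran from 0 through a median of 19.7 to 72.0 FPKM, with a mean of 22.8 ± 21.5. NS_16 had 4.02, NS_9 15.4 and NS_13 36.4 FPKM, and the other 9 NS cells had 0. Only NS_13 lay above the LS median. The LS mean was 4.90-fold the NS mean of 4.65 ± 10.9 (log2 ratio 2.29), and the log2 ratio was 3.69 without NS_13.

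Gria4, whose protein gives fast channel kinetics, was the most uneven subunit in LS cells. It was read in 27 of 35 LS cells (77.1%, interval 59.9 to 89.6%), with values from 0 through a median of 2.36 to 112 FPKM and a mean of 22.1 ± 32.2. The 3 NS cells with a read were NS_8 at 48.4, NS_16 at 69.6 and NS_13 at 314 FPKM, and all 3 lay above the LS median. NS_13 alone lay above every LS cell, and the NS mean was 35.99 ± 90.5 with it and 10.7 ± 24.3 without it. The log2 ratio of LS to NS was -0.71 with NS_13 and 1.04 without it, so the direction again rested on 1 cell.

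NS_13 and NS_16 were both GABA-marked and both had receptor-gene levels under 10%. NS_16 carried 9164 FPKM of Sst, the somatostatin gene of one interneuron class, with 324 of Gad2, beside 28.8 of Slc17a7 and 815 of the microglial C1qb. NS_13 carried 754 FPKM of Gad1, 588 of Gad2 and 227 of Erbb4, with the microglial C1qa at 2.17. The summed subunit FPKM of NS_13 was 373 and that of NS_16 was 716, both above the LS highest of 235. The other 10 NS cells had sums from 0 to 62.0. The mean sum was 98.1 ± 65.3 for LS and 101 ± 221 for NS cells (log2 ratio -0.05), and the medians were 87.3 and 0.80. Without NS_13 and NS_16 the log2 ratio was 2.96.

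**Figure D2:**
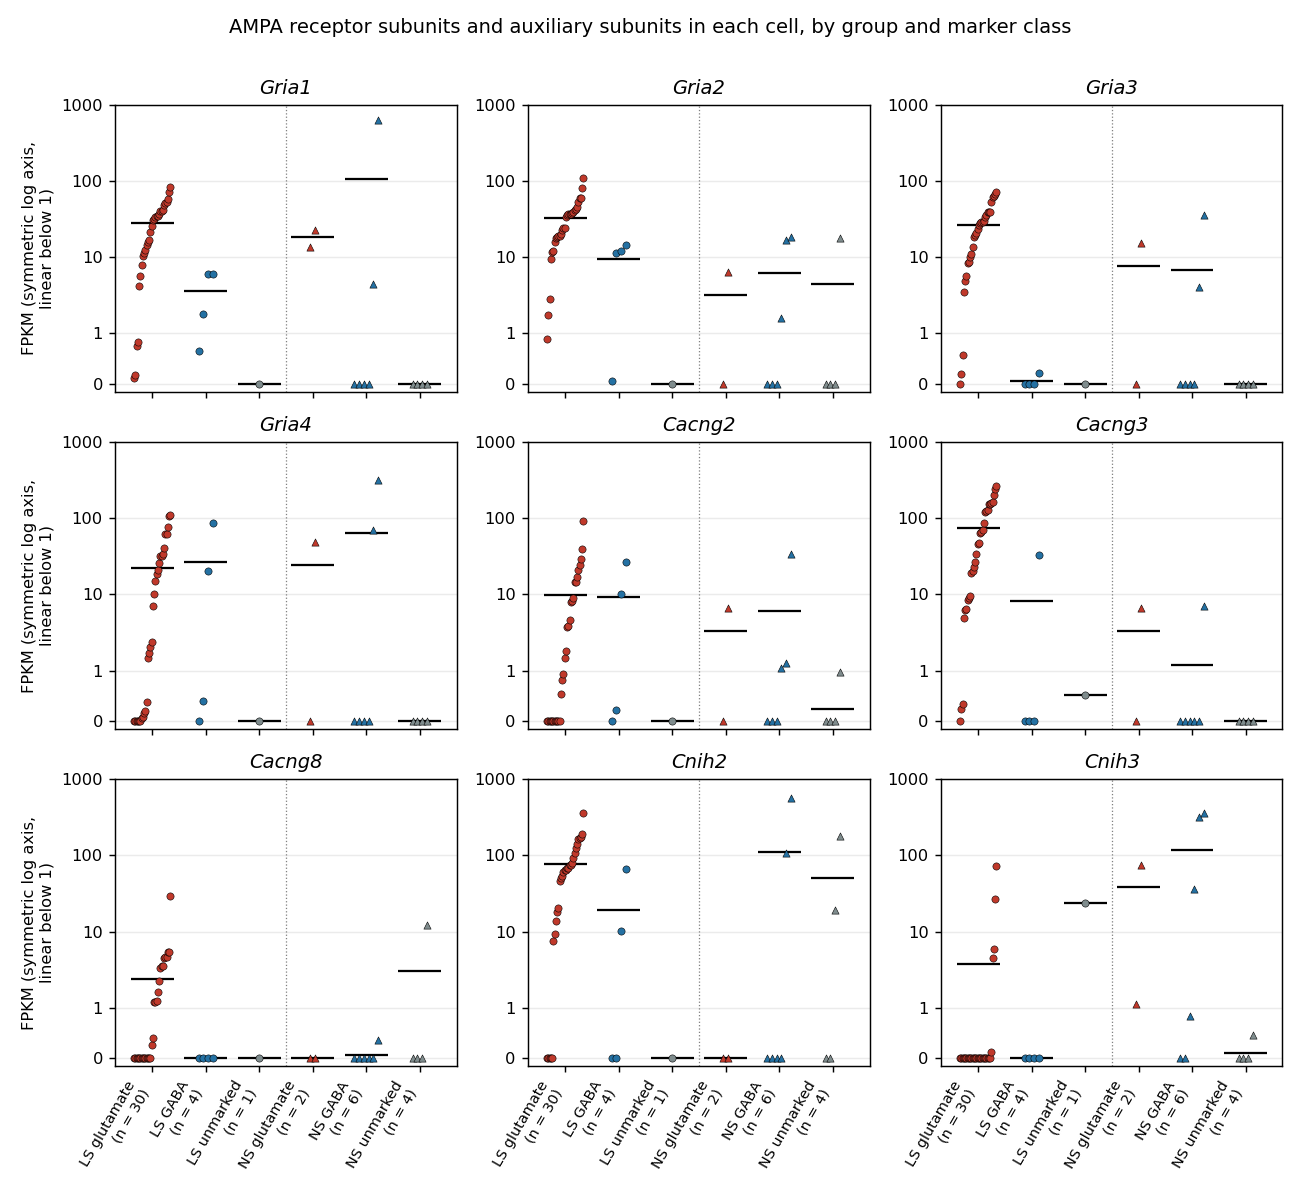
FPKM (vertical axis, symmetric log scale, linear below 1) of each of the 9 genes in every filtered cell, by group and marker class, with circles for LS cells, triangles for NS cells and a line at the mean of each class. Most NS cells lie at 0 for the subunits, while single NS cells lie above every LS cell, such as NS_16 at 626 FPKM of Gria1 and NS_13 at 314 of Gria4.

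Among the TARPs, Cacng3 separated the groups most. Its product, TARP gamma-3, is a forebrain TARP related to stargazin. Cacng3 was read in 31 of 35 LS cells (88.6%, interval 73.3 to 96.8%) with values from 0 through a median of 32.5 to 262 FPKM and a mean of 65.5 ± 75.6. In NS cells it had 10 reads in all, in NS_8 at 6.56 and NS_7 at 7.05 FPKM (16.7% of cells, interval 2.09 to 48.4%). The receptor-gene levels of these cells were 113% and 95.6%, and the 3 NS cells under 10% were at 0. The LS mean was 57.8-fold the NS mean of 1.13 ± 2.65 (log2 ratio 5.85), 25 of 35 LS cells lay above every NS cell, and no NS cell reached the LS median. Leaving out NS_7 gave a log2 ratio of 6.78.

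Cacng2, which encodes stargazin, the TARP lost in the ataxic stargazer mouse, was read in 22 of 35 LS cells (62.9%, interval 44.9 to 78.5%) and 5 of 12 NS cells. Its LS values ran from 0 through a median of 1.47 to 92.9 FPKM, with a mean of 9.52 ± 17.7. NS_2 had 0.97, NS_11 1.09, NS_16 1.24, NS_8 6.61 and NS_7 33.8 FPKM. The groups overlapped widely, with a log2 ratio of 1.39 that was 3.40 without NS_7 and 0.96 without LS_25, the highest LS cell.

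Cacng8, which encodes TARP gamma-8 and is best known from the hippocampus, had low FPKM in most cells. Its FPKM is lowered by the length used, 3794 bases against 1897 in its longest coding transcript. It was read in 16 of 35 LS cells (45.7%, interval 28.8 to 63.3%) at a median of 0 and a highest value of 28.96 FPKM, and LS_40 alone held 279 of its 450 LS reads. In NS cells NS_16 had 0.36 and NS_14 12.3 FPKM. The LS mean was 2.05 ± 5.03 and the NS mean 1.05 ± 3.53, and their log2 ratio of 0.96 was 5.97 without NS_14 and 0.26 without LS_40.

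Cnih2, the cornichon that slows AMPA receptor closing in principal neurons, was read in 27 of 35 LS and 4 of 12 NS cells. Its LS values ran from 0 through a median of 60.6 to 363 FPKM, with a mean of 67.9 ± 76.7. NS_4 had 19.4, NS_16 106, NS_14 180 and NS_11 564 FPKM, and 3 of these 4 lay above the LS median. The NS mean of 72.4 ± 165 gave a log2 ratio of -0.09. Without NS_11 the NS mean was 27.8 ± 59.6 and the log2 ratio 1.29.

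Cnih3, its close homologue, was read in a larger share of NS than of LS cells. It was read in 6 of 35 LS cells (17.1%, interval 6.56 to 33.6%) and in 7 of 12 NS cells (58.3%, interval 27.7 to 84.8%), and after thinning in 14.3% of LS and 44.4% of NS cells. Its LS values ran from 0 through a median of 0 to 73.4 FPKM (mean 3.84 ± 13.5), and LS_23 held 178 of its 285 LS reads. The NS cells with a read were NS_14 at 0.46, NS_13 at 0.83, NS_8 at 1.11, NS_7 at 35.9, NS_9 at 74.8, NS_16 at 317 and NS_6 at 361 FPKM. NS_9, NS_16 and NS_6 lay above every LS cell. The NS mean of 65.9 ± 130 was 17.1-fold the LS mean (log2 ratio -4.10), and NS_16 held 632 of the 932 NS reads. Leaving out NS_6, the highest cell, gave -3.34. NS_6, NS_7 and NS_9 had receptor-gene levels of 99.3%, 95.6% and 48.7%. They also had oligodendrocyte precursor markers, with 270 and 191 FPKM of Cspg4 in NS_6 and NS_7 and 71.8 of Pdgfra in NS_9. By contrast, NS_15 with 239 of Cspg4 and NS_11 with 47.5 of Pdgfra had no Cnih3, and NS_16 had neither marker. Whether precursor RNA adds to Cnih3 was not tested. All 3 NS cells under 10% had Cnih3, but NS_13 and NS_14 had 1 read each.

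The auxiliary genes summed to 149 ± 113 FPKM in LS and 144 ± 198 in NS cells (log2 ratio 0.05), and the medians were 143 and 47.1. Cnih2 made up 67.9 of the LS mean and 72.4 of the NS mean, and the rest was mostly Cacng3 in LS (65.5) and Cnih3 in NS cells (65.9). Cacng3 or Cnih2 led the auxiliary sum in 32 of the 34 LS cells with an auxiliary read and together made up 81.4% ± 25.6 of it. In the 10 NS cells with an auxiliary read Cnih3 led in 5, Cnih2 in 3 and Cacng2 in 2.

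**Figure D3:**
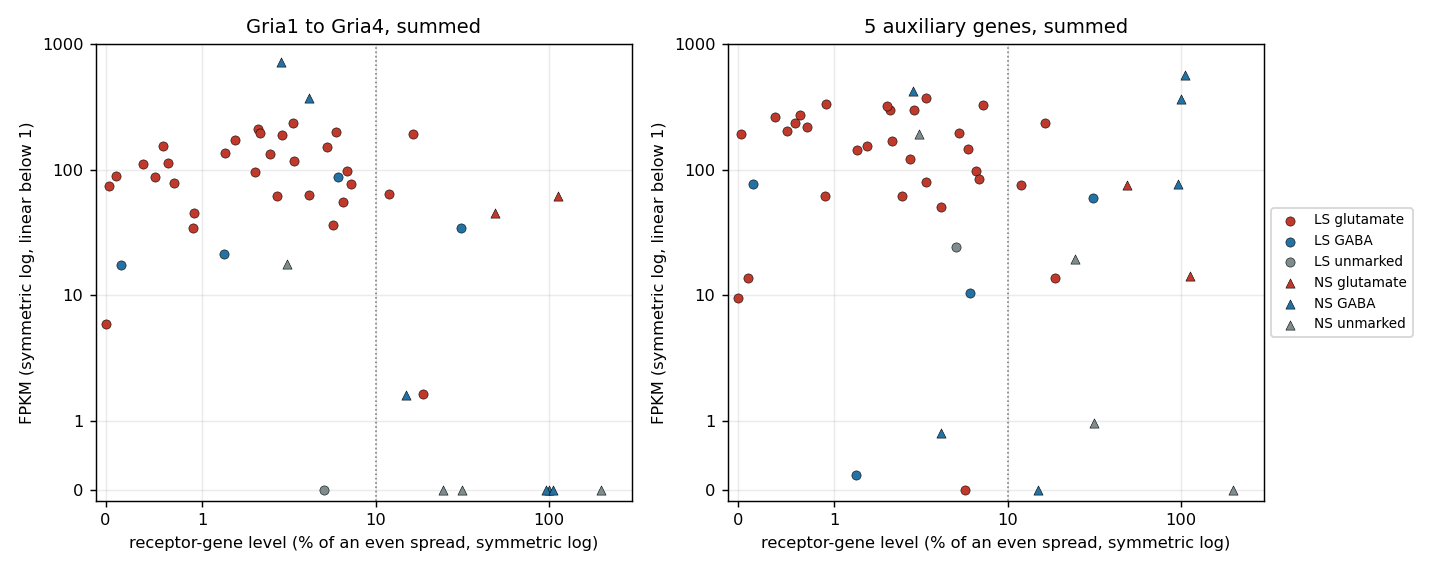
Summed FPKM of the 4 subunits (left) and of the 5 auxiliary genes (right) in each cell against its receptor-gene level in percent of an even spread over exons, both axes symmetric log, with circles for LS and triangles for NS cells, colours for marker classes and a dotted line at 10%. The 6 NS cells without a subunit read lie at receptor-gene levels from 24.6% to 200%, and NS_13 and NS_16 lie at 4.14% and 2.84% with the highest subunit sums.

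Against all genes, the 9 members leaned little to either group. With a log2 ratio past 1 as the limit, 4 of the 9 were higher in LS (Gria2, Gria3, Cacng2 and Cacng3), where 43.2% of the 12004 genes compared were, and 2 were lower (Gria1 and Cnih3), where 25.3% were. The members' median log2 ratio was 0.96 and that of all genes compared 0.61. The share of 4 in 9 is near the background and is no result about these genes.

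Within the LS group, Gria3, Gria1 and Cacng3 were high in glutamate-marked cells and low or at 0 in most GABA-marked cells. For a log2 ratio past 1, 7 of the 9 members were higher in the 30 glutamate-marked cells, against 59.4% of the 10067 genes compared, and none was lower, against 8.58%. Genes at 0 in the GABA-marked cells, among them Cacng8 and Cnih3, passed through the glutamate-marked cells alone and entered at a floor of 3 reads. A gene higher in glutamate-marked cells needed reads in 3 of 30 cells, and a gene higher in GABA-marked cells in 3 of 4. The filter thus partly sets these shares, and 7 of 9 is no result about these genes. The median log2 ratio of all genes was 1.53 and the members' median was 2.95. The 4 GABA-marked cells (LS_9, LS_14, LS_15 and LS_39) had Gad1 or Gad2, and 4 of the 7 glutamate markers, Slc17a7, Neurod2 and Emx1 among them, were at 0 in all of them, as were Pvalb and Sst. LS_9 also had glutamate markers, with 32.7 FPKM of Neurod6, 3.23 of Neurod1 and 2.41 of Tbr1. LS_15 carried 5266 FPKM of Vip, and LS_39, at 9.25 FPKM of Gad1 with 1800 of C1qb and 409 of Gfap, was the least clear of them.

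Gria3 was almost missing from GABA-marked LS cells, with 1 read in LS_9 (0.22 FPKM) and none in LS_14, LS_15 or LS_39. In 29 of 30 glutamate-marked LS cells it had reads, 9411 in all, with a mean of 26.6 ± 20.9 FPKM, and 28 of 30 lay above all 4 GABA-marked cells. With 1 read behind the lower value no fold is given. Among NS cells, by contrast, the highest Gria3 value was that of the GABA-marked NS_13.

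Gria1 had 1.82, 5.99, 6.03 and 0.65 FPKM in LS_9, LS_14, LS_15 and LS_39, against 28 ± 22.1 in glutamate-marked cells, a log2 ratio of 2.95. The class ranges overlapped, with 24 of 30 glutamate-marked cells above all 4. Gria2 had 12.04, 11.4, 14.7 and 0.06 FPKM in the same order, against 32.4 ± 23.7 (log2 ratio 1.77), and again 24 of 30 lay above all 4. GABA-marked LS cells other than LS_39 thus held Gria2 at a similar level to each other, above their Gria1.

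Gria4 was the subunit that did not lean to glutamate-marked cells. It had 20.4, 0, 0.40 and 86.4 FPKM in LS_9, LS_14, LS_15 and LS_39, against 22.2 ± 31.99 with a median of 4.68 in glutamate-marked cells. The log2 ratio was -0.27, and 1.67 without LS_39. Only 2 of 30 glutamate-marked cells lay above LS_39. Within the glutamate-marked class itself 11 cells had under 1 FPKM, 14 had 10 or more and 2 had over 100, the widest scatter of the 4 subunits.

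Cacng3 had 32.5 FPKM in LS_9 and 0 in the other 3, against 75.3 ± 77.4 in glutamate-marked cells. Its log2 ratio of 3.21 rests on LS_9, the GABA-marked cell with glutamate markers and a receptor-gene level of 30.9%, and no ratio exists without it. Cacng2 had 26.8, 10.1, 0.22 and 0 FPKM against 9.87 ± 18.7, a log2 ratio of 0.09, or 1.52 without LS_9. Cnih2 had 0, 67.0, 0 and 10.3 FPKM against 76.7 ± 78.9, a log2 ratio of 1.99, or 4.48 without LS_14. Cacng8 and Cnih3 had no read in any of the 4. With 3 reads set for the GABA-marked cells, pooled reads per total were 19.1-fold higher for Cacng8 and 10.2-fold for Cnih3 in glutamate-marked cells. Means there were only 2.40 ± 5.36 and 3.70 ± 14.1 FPKM. These folds depend on the floor chosen and are no lower bounds, since 14 of the 30 glutamate-marked cells had no Cacng8 read and 25 no Cnih3 read. The folds were 7.77 without LS_40, which held 279 of the 450 Cacng8 reads, and 2.74 without LS_23, which held 178 of the 241 Cnih3 reads.

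The summed subunit FPKM was 109 ± 63.04 in glutamate-marked cells and 34.5, 17.4, 21.1 and 87.1 in LS_9, LS_14, LS_15 and LS_39, a log2 ratio of 1.45. It was 2.17 without LS_39. The summed auxiliary FPKM was 168 ± 110 against 59.3, 77.1, 0.22 and 10.3 (log2 ratio 2.19).

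The 2 glutamate-marked NS cells were marked weakly and had receptor-gene levels above 10%. NS_8 (28.03 FPKM of Neurod2, beside 177 of Sst) had 13.6 FPKM of Gria1, 48.4 of Gria4 and no Gria2 or Gria3. NS_9 (1.91 of Neurod2 and 1.36 of Slc17a7) had 22.8 of Gria1, 6.43 of Gria2, 15.4 of Gria3 and no Gria4. Neither had Cacng8 or Cnih2. Their subunit sums of 62.0 and 44.7 lie inside the range of glutamate-marked LS cells, 1.64 to 235. Of the 6 GABA-marked NS cells, NS_6 had a read of Cnih3 alone, NS_12 of Gria2 alone, and NS_7 and NS_11 had auxiliary genes without a subunit. Among the unmarked NS cells, NS_15 had none of the 9 genes, and NS_14 had Gria2 at 17.8 FPKM beside 353 of Pvalb and 433 of Gfap.

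FPKM is per length, so the subunits can be set side by side within a cell. In glutamate-marked LS cells Gria2 made up 32.1% ± 16.8 of the summed subunit FPKM, Gria1 28.7% ± 21.96, Gria3 22.8% ± 14.3 and Gria4 16.3% ± 20.3 (SD, n = 30 cells). Gria2 led in 11 cells, Gria1 in 10, Gria4 in 5 and Gria3 in 4, and the leading subunit held a median of 51.7%. No order holds beyond the spread between cells. The merged exons of Gria2 (15548 bases) and Gria3 (9859) are longer than their longest coding transcripts (10371 and 5192), which lowers their FPKM beside that of Gria1 (6043 and 5546) and Gria4 (6146 and 5441). With the transcript lengths the shares were 33.5% for Gria2, 29.4% for Gria3, 23.3% for Gria1 and 13.8% for Gria4, so Gria1 and Gria3 changed places.

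**Figure D4:**
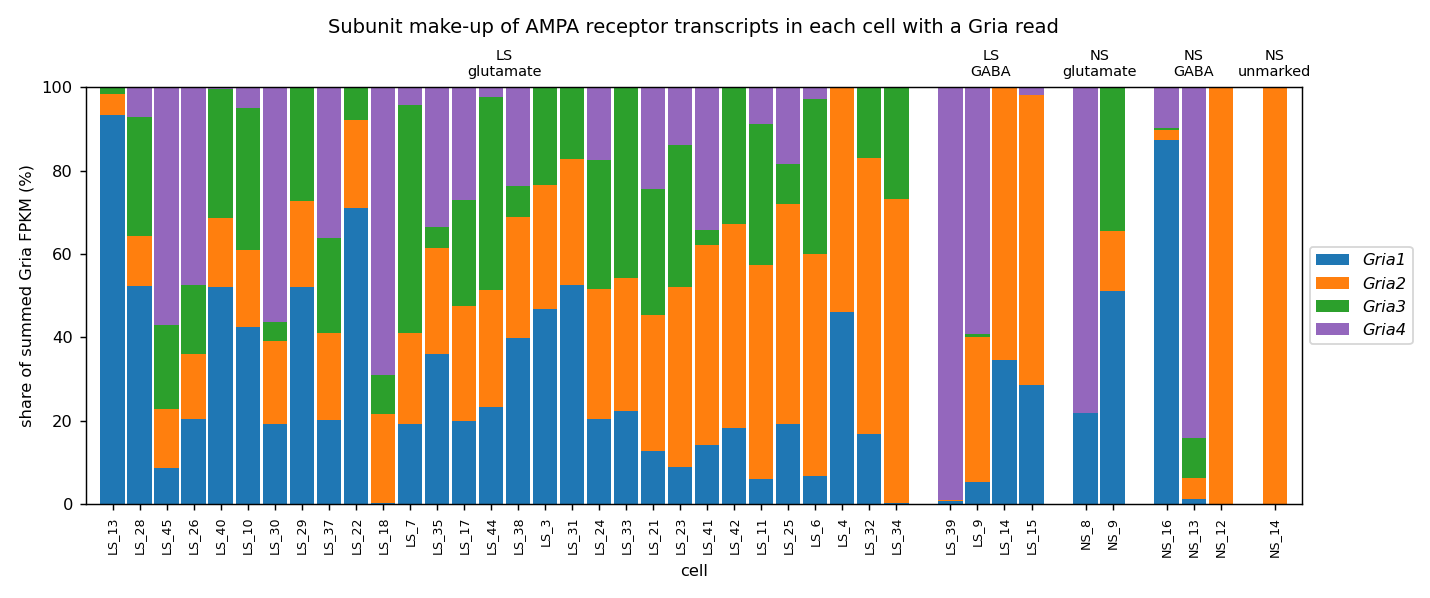
Share of each subunit in the summed Gria FPKM (vertical axis, percent), as 1 stacked bar for each cell with a subunit read, by group and marker class and in order of the Gria2 share. Most glutamate-marked LS bars hold all 4 subunits, whereas the leading subunit of the 6 NS bars has a median share of 85.7%.

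In the 4 GABA-marked LS cells the mean shares were 42.5% for Gria2, 40.1% for Gria4, 17.3% for Gria1 and 0.16% for Gria3. Gria2 led in LS_14 and LS_15, and Gria4 in LS_9 and LS_39, where it reached 99.2% of the sum. The Gria4 share was 23.7 percentage points higher than in glutamate-marked cells. Its SD between cells was 48.0 points in the GABA-marked and 20.3 in the glutamate-marked cells, so the difference lay within the SD of the GABA-marked cells. The difference was 4.02 points without LS_39 and 37.1 without LS_14.

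By mean FPKM in glutamate-marked LS cells the 9 genes ran Cnih2, Cacng3, Gria2, Gria1, Gria3, Gria4, Cacng2, Cnih3 and Cacng8. No neighbours in that order differed beyond the spread of their difference between cells. The place of Cacng8 behind Cnih3 also depends on length, since the lengths used were 3794 and 2727 bases against longest coding transcripts of 1897 and 2668. The widest step, from Cacng3 down to Gria2, was 42.9 ± 75.05 FPKM, with Cacng3 higher in 19 of 30 cells. Cacng3 and Cnih2 together made up 87.0% ± 15.5 of the auxiliary FPKM in the 29 cells with an auxiliary read, and 1 of them led in each of the 29 (Cacng3 in 16, Cnih2 in 13). Gria2 was at 10 FPKM or more in 26 of 30 cells, Gria1 and Cnih2 in 23, Gria3 in 22, Cacng3 in 21, Gria4 in 14, Cacng2 in 8, Cnih3 in 2 and Cacng8 in 1.

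Across these 30 cells, correlations between the members were mostly low. Of the 36 pairs, 30 had a positive Pearson correlation of log2(FPKM + 1), with a median r of 0.21 and a range from -0.21 to 0.79. Gria2 and Gria3 formed the closest pair (r = 0.79, Spearman rho = 0.57). It had r = 0.77 after thinning and 0.64 without LS_4 and LS_13, the cells farthest from the median of Gria2. Cnih2 followed Gria2 (r = 0.58, rho = 0.47) and Gria3 (r = 0.57, rho = 0.60), and without the 2 farthest cells these were 0.35 and 0.48. Gria2 and Cacng3 had r = 0.50 (rho = 0.34, and 0.32 without the 2 farthest cells). With log2 reads per cell, Gria2 had r = -0.11 and Gria3 r = -0.12, and with the number of genes above 1 FPKM Gria2 had r = -0.41. These correlations describe single cells that share a library protocol and unnamed mice, and they carry no test.

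**Figure D5:**
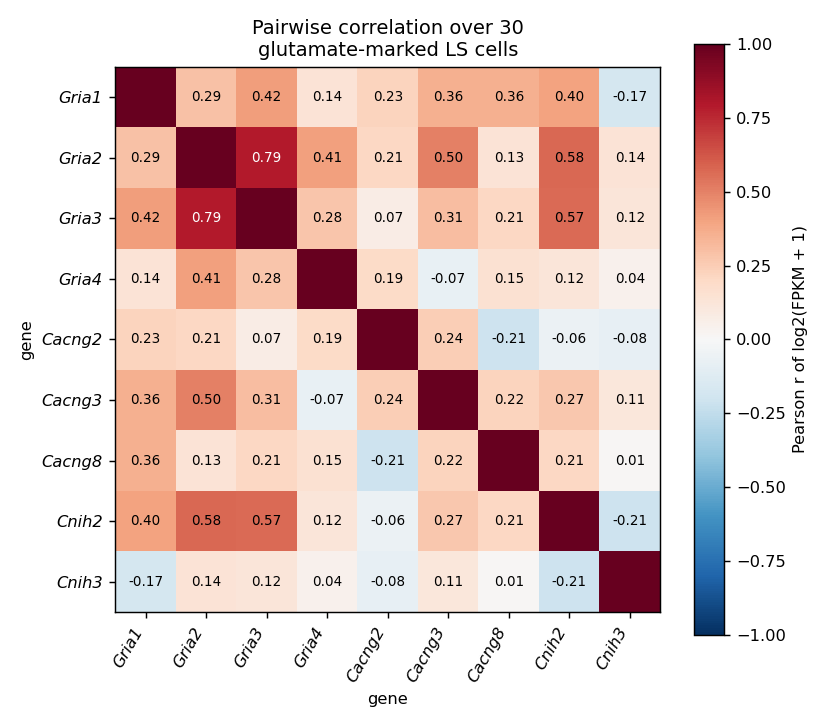
Pearson correlation of log2(FPKM + 1) between each pair of the 9 genes over 30 glutamate-marked LS cells, as a coloured grid. The highest off-diagonal value is Gria2 with Gria3 at 0.79, followed by Gria2 and Gria3 with Cnih2 at 0.58 and 0.57.

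Among 6699 genes read in at least 50% of these cells, those whose FPKM ran most like Gria2 were Fam131a, Stmn3 and Arpp21 (r = 0.85 each), and Gria3 ranked 12. Among those most like Gria3 were Ttc3 (0.82) and Cacna2d1 (0.81), with Gria2 at rank 5. The closest genes to Gria1 were Lingo1 (0.69), Ntm (0.69) and Dpp10 (0.66). Gria4 had the weakest likeness, with Mcf2l (0.60), Pde4dip (0.58) and Hnrnph2 (0.56). By Spearman correlation Stmn3 ranked 139 for Gria2 and Ntm 54 for Gria1, Gria3 ranked 56 for Gria2 and Gria2 51 for Gria3, and the other 9 genes named were at rank 19 or nearer.

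Of 30 other genes that act on AMPA receptors, 24 had enough reads for the comparison of LS with NS. A log2 ratio past 1 was found in 12 of the 24 towards LS, where 43.2% of all genes had one, and in 5 towards NS (Shisa6, Cpt1c, Dlg4, Grip1 and Grip2), where 25.3% had one, with a median of 1.06. These shares are near the background. Only Dlg4, which encodes the scaffold PSD-95, stayed past the limit without its highest NS cell, at -1.75 and then -1.34. It was read in only 4 of 12 NS cells, against 20 of 35 LS cells. Of those NS cells, NS_6, NS_8 and NS_11 had receptor-gene levels of 99.3%, 113% and 106%, and NS_14 had 3.09%. Grip2 went from -1.57 to 2.33 without NS_6.

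Values are given for the 3 highest and the 3 lowest of the 14 genes found in 50% or more of cells where they averaged higher and with 4 or more reads in the other group, which leaves out genes with lower ratios such as Shisa6 and Dlg4. Nptxr, the neuronal pentraxin receptor that clusters AMPA receptors, averaged 155 FPKM in LS and 4.49 in NS cells (log2 ratio 5.11, and 5.69 without NS_4). Abhd6, a hydrolase that lowers their surface delivery, averaged 38.4 and 1.19 (5.01), with 26 of its 28 NS reads in NS_12 and a ratio of 7.23 without that cell. Frrs1l, an assembly factor in the endoplasmic reticulum, averaged 18.03 and 1.01 (4.16), with 54 of its 57 NS reads in NS_16 and again 7.23 without it.

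The 3 lowest ratios each rested on 1 NS cell. Cpt1c, a partner of GluA1, averaged 40.04 FPKM in LS and 117 in NS cells (-1.55), but NS_15, with a receptor-gene level of 200% and none of the 9 members, held 66.5% of the NS FPKM, and without it the ratio was -0.10. Gripap1, which acts in receptor recycling, averaged 15.04 and 18.3 (-0.29), and 2.03 was the ratio without NS_13. Gsg1l, an auxiliary subunit, averaged 29.03 and 17.6 (0.72), with 147 of its 159 NS reads in NS_2 and a ratio of 4.84 without it. Adarb1, the editing enzyme of the Gria2 codon, averaged 6.41 FPKM over LS and 2.32 over NS cells (log2 ratio 1.46, and 2.84 without NS_8). It is named here after its value was seen.

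Between glutamate-marked and GABA-marked LS cells, 16 of 24 of these other genes had a log2 ratio past 1 towards the glutamate-marked cells, where 59.4% of all genes had one, and 3 towards the GABA-marked cells, where 8.58% had one, with a median of 1.75 beside 1.53 for all genes. A gene higher in GABA-marked cells needed reads in 3 of those 4 cells, so the filter partly sets these counts. Among the genes left out by it were Cacng4 (log2 ratio -5.36), Grip2 (-3.12) and Shisa6 (-1.89), each read in 2 of the 4. The 3 genes past the limit towards the GABA-marked cells were named after their values were seen. Cacng5, a type II TARP, averaged 1.68 against 63.8 FPKM (log2 ratio -5.25, and -4.55 without LS_14). Shisa9, an auxiliary subunit, averaged 5.37 against 18.2 (-1.76), and -0.84 without LS_14 was under the limit. Gripap1 averaged 12.3 against 39.5 (-1.68), but LS_9 alone had 143 FPKM, and without it the ratio turned to 1.27.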

How the data were processed

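Single V1 layer 2/3 cells were sequenced with Smart-seq2. The authors trimmed reads with AfterQC, aligned them to GRCm38 with STAR 2.5.3a, counted them per gene with featureCounts and deposited 1 table of FPKM (fragments per length of exon and per sequencing depth), limited to protein-coding genes with at least 1 FPKM in some cell. FPKM corrects for depth and gene length, so a cell with few genes spreads its total over fewer of them, and a 0 can be a missed molecule. Whole reads were recovered from the steps of the FPKM values, with merged exon lengths of GENCODE M21 for 12097 genes and solved lengths for 6346. The recovered genes held 99.1% of positive values. The 1736 unsolved genes entered library totals, thinning and ratios at the floor with reads rounded from annotated lengths. They entered other ratios and the number of genes per cell by FPKM. Recovered reads were whole to within 0.01 read. They were used for detection, intervals and thinning, never for a count test. The 4 rows with repeated names were left out.

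Cells were kept by the study's stated filters (LS_1 and NS_1 out for low cDNA, at least 1000 genes above 1 FPKM, at most 25% mitochondrial, product scores of glial and joint class markers at 0), which took 63 cells to 60, 50, 49 and 47. This keeps fewer LS cells than the study did. Log2 ratios were taken of mean FPKM, over genes read in at least 3 cells with a mean of at least 1 FPKM in the higher group. Where a group had no read, the ratio was of pooled reads per total, with 3 reads set for that group. With 1 sample per group no test was made. Named were all 9 members, of the other AMPA genes the 3 highest and 3 lowest ratios among those read in at least 50% of cells of the higher group with at least 4 reads in the lower, and the 3 genes most like each Gria gene, of which 1 for Gria3 is not reported here. The members and all lists were chosen with earlier results of these data known. Alternatives changed the cell filter, pseudocount, gene length, class markers, depth and single cells. The recovery of reads was tested on simulated data, and the other steps were not. All steps ran under Python 3.11.15 with scipy 1.17.1, pandas 2.3.3 and numpy 2.4.6.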

Additional observations from a re-analysis of the deposited data

Results flagged for a closer look

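Of the members' values in the small marker classes of 4 and 6 cells, 10 of 16 sets held 1 cell that stood far from the rest by Dixon's criterion. The criterion picks about 1 set in 20 by chance where values spread normally, but in sets with most cells at 0, as here, any single cell with reads meets it, so the number of sets is no measure of excess. Among the 4 GABA-marked LS cells these were Gria3 in LS_9 at 0.22 FPKM, which is a single read, Cacng3 in LS_9 at 32.5 FPKM and Cnih2 in LS_14 at 67.0 FPKM. Among the 6 GABA-marked NS cells they were Gria1 in NS_16 at 626 FPKM, Gria3 in NS_13 at 36.4, Gria4 in NS_13 at 314, Cacng2 in NS_7 at 33.8, Cacng3 in NS_7 at 7.05, Cacng8 in NS_16 at 0.36 and Cnih2 in NS_11 at 564 FPKM. What sets these cells apart was not tested.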

How the results depend on the processing

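A value was counted as moved where it shifted by more than its standard error between cells. That standard error takes cells as independent, so it serves as a yardstick here and not as a test. The summed values and shares stayed within it in 272 recomputed values and moved in 15, and values of single genes and pairs stayed within it in 193, moved in 36 and turned direction from a log2 ratio past 1 in 4. Most recomputed summed values and shares left out 1 cell, which seldom shifts a mean over many cells by its standard error. The number that stayed is thus no measure of stability, and the changes of setting below tell more. Of 107 recomputed log2 ratios of single genes, 13 changed sign at any size, Gria4 and Cnih2 between LS and NS and Gria4 between classes among them. The log2 ratio of summed subunits between LS and NS (-0.05) was -1.86 over cells with receptor-gene levels under 10%, 6.77 by medians, 3.12 with log2(FPKM + 1), 4.71 with log2(FPKM + 0.1) and 2.96 without NS_13 and NS_16, and ran from -0.17 to 1.11 with 1 cell left out, the last without NS_16. That of the auxiliary sum (0.05) was 1.60 by medians, 1.67 with log2(FPKM + 1) and 2.22 with log2(FPKM + 0.1), and ran from -0.08 to 0.49. Between glutamate-marked and GABA-marked LS cells the subunit ratio (1.45) ran from 1.20 to 2.17, and the auxiliary ratio (2.19) was 1.14 over all 63 cells, 3.16 with log2(FPKM + 0.1) and 1.21 with further class markers, and ran from 1.78 to 2.85. The Gria2 share (32.1%) was 28.5% by medians and 47.4% in CPM, which takes no account of length, and ran from 30.7 to 33.1%. The Gria4 share difference ran from 4.02 to 37.1 points. Gria1 between LS and NS (-1.19) turned to 2.72 without NS_16 and 2.75 without NS_13 and NS_16, and ran from -1.29 to 2.72. Grip2 between LS and NS (-1.57) ran from -2.60 to 2.33, the last without NS_6, and Gripap1 between classes (-1.68) from -1.84 to 1.27, the last without LS_9. The causes were not tested beyond the cells left out. No ratio exists for Cacng3 between LS and NS at receptor-gene levels under 10%, nor for Gria3 and Cacng3 between classes without LS_9, since the lower group was then at 0. No paired analysis was possible because the labels tie no LS cell to an NS cell or to a mouse. NS depth, with a median of 334582 reads, limits what a 0 shows.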
